A study of Mus musculus with 6 samples.

Results

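The genes described here were the Janus kinase genes Jak1, Jak2 and Tyk2 and the STAT genes Stat2, Stat3, Stat4, Stat5a, Stat5b and Stat6, whose products carry signals from cytokine receptors to the nucleus. They were taken from the deposited count table by gene symbol, without a filter on their values, and made up 9 of its 52636 genes, 3 of them kinases and 6 of them STATs. The choice of genes was made with earlier results of these data known. Jak3, a kinase of the same family that pairs with the common gamma chain of interleukin receptors, is given beside them for its level.

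Vestibular sensory epithelium of the inner ear was profiled by bulk RNA-seq in male mice of the 129S1/SvImJ strain, aged 2 to 4 months, to compare animals under chronic ototoxic exposure with unexposed animals. The IDPN group (n = 3) drank water with 30 mM 3,3'-iminodipropionitrile, a nitrile that is toxic to vestibular hair cells (HCs), and the Control group (n = 3) drank water with 0 mM of it, both over 8 weeks. Every library came from a separate animal and pooled its 2 utricles and 6 cristae, so each value averages the HCs, supporting cells and all other cells of these organs. The 6 libraries carried the same batch label, but the title codes of the Control animals had a stem in common that no IDPN animal shared, and an effect of whatever that stem stands for cannot be told apart from one of the exposure.

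Cytokine receptors of this pathway have no kinase of their own and hold Janus kinases on their cytoplasmic tails. When a ligand brings the receptor chains together, the kinases phosphorylate the receptor and then the STAT proteins, which pair and enter the nucleus. Type I interferon acts through the kinases JAK1 and TYK2 on a complex named ISGF3, which contains STAT2 and IRF9 and binds interferon-stimulated response elements, whereas other STATs bind gamma-activated sequences as dimers. STAT3, the effector of gp130 cytokines, is known from nervous and sensory tissue as a regulator of the response of glial and supporting cells to injury.

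Each library held 40474847 to 43566332 estimated counts, and the 9 genes together took 0.0206% to 0.0345% of them. Counts were divided by DESeq2 median-of-ratios size factors, between 0.825 and 1.21, to give the normalized counts used throughout. A gene was called up- or downregulated when it had a DESeq2 adjusted p (Padj) under 0.05 with a fold change over 1.5. All 12 HC markers and all 10 supporting cell markers had a mean of at least 10 normalized counts. The summed HC markers were 23400 to 24410 in Control against 12190 to 13530 in IDPN, with 10 of 12 downregulated. Their median log2-Fold_Change was -0.95 (-0.71 under total-count scaling), and 9 were downregulated by edgeR and 6 under total-count scaling. Of all genes tested by DESeq2, 3.42% were downregulated and 2.32% upregulated. The summed supporting cell markers were also lower, 330300 to 470500 in Control against 240700 to 285400 in IDPN, with a median log2-Fold_Change of -0.41 (-0.14 under total-count scaling), 1 of 10 downregulated (the gap junction gene Gjb6) and 1 upregulated (the transcription factor gene Sox10). In bulk tissue, fewer cells of a type and less RNA per cell cannot be told apart. The library IDPN 2 stood apart in immediate early genes: Fos had 41740 normalized counts there against 129 to 314.5 in the other 5 libraries, and Junb 19530 against 136 to 307. Values without IDPN 2 are therefore given beside the results that rest on it.

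Stat2 was the only gene of the group to pass the thresholds, and it was upregulated 1.97-fold after IDPN. Of the 8 genes that kept enough counts for a Padj, 1 was upregulated and 0 were downregulated, where 2.32% of all 17650 tested genes were upregulated and 3.42% downregulated. Every IDPN library lay above every Control library for 2 of the genes, Stat2 and Stat3, against 11.1% of all tested genes, and below for 0, against 11.4%. The median log2-Fold_Change of the 8 tested genes was 0.25, 6 of them being above 0 and 2 below, and the median over all tested genes was 0.02. The edgeR quasi-likelihood test called the same gene only (1 of 8 upregulated and 0 downregulated, against 1.02% and 2.19% of all genes it tested). With size factors set by total counts, the log2-Fold_Change of all genes shifted upwards by a median of 0.25. Under that scaling Stat2 was again the 1 gene upregulated and 0 were downregulated, against 3.64% and 1.28% of all tested genes, and the log2-Fold_Change of all 8 was above 0, so the directions of Jak1 and Tyk2 below are relative to the typical gene and turned.

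Levels of the genes spanned a wide range when counts were divided by transcript length. In Control, Jak1 (638 ± 53.6 normalized counts per kilobase, SD, n = 3) and Stat6 (607 ± 175) stood highest, and their libraries overlapped. Stat3 (391 ± 7.15), Stat5b (312 ± 18.6), Stat5a (142 ± 27.6) and Stat2 (100.9 ± 12.1) followed, each with all Control libraries below those of the gene before it. Tyk2 (62.8 ± 5.52) and Jak2 (56.2 ± 2.61) came next and overlapped, Jak3 was lower (9.14 ± 5.38), and Stat4 was at the limit of detection (0.586 ± 0.581). Jak1, whose product serves most of these receptors, was thus above all of these STAT genes but Stat6, and the other kinase genes were below all of them but Stat4.

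The order in IDPN differed at Jak1, at Stat2 and, in the means only, at Jak2. Jak1 was above Stat6 in 2 of the 3 Control libraries and in 0 of the 3 IDPN libraries. Their IDPN means were 594 and 690 normalized counts per kilobase. Jak2 (72.9 ± 30.3) had a higher IDPN mean than Tyk2 (58.2 ± 7.37), but Tyk2 was higher in 2 of the 3 IDPN libraries. Stat2 reached 199 ± 37.7 normalized counts per kilobase (SD, n = 3) and Stat5a 178 ± 26.6. Stat5a was above Stat2 in all 3 Control libraries and in 0 of the 3 IDPN libraries, although the ranges of the genes overlapped in IDPN. The log2 ratio of Stat2 to Stat5a, which does not depend on length when groups are compared, was -0.29, -0.51 and -0.11 in Control and 0.23, 0.26 and 0.50 in IDPN, a difference of 0.64 between the means. The groups did not overlap in this ratio. The pair was chosen after its values were seen, and the difference is given as a description without a test.

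**Figure D1:**
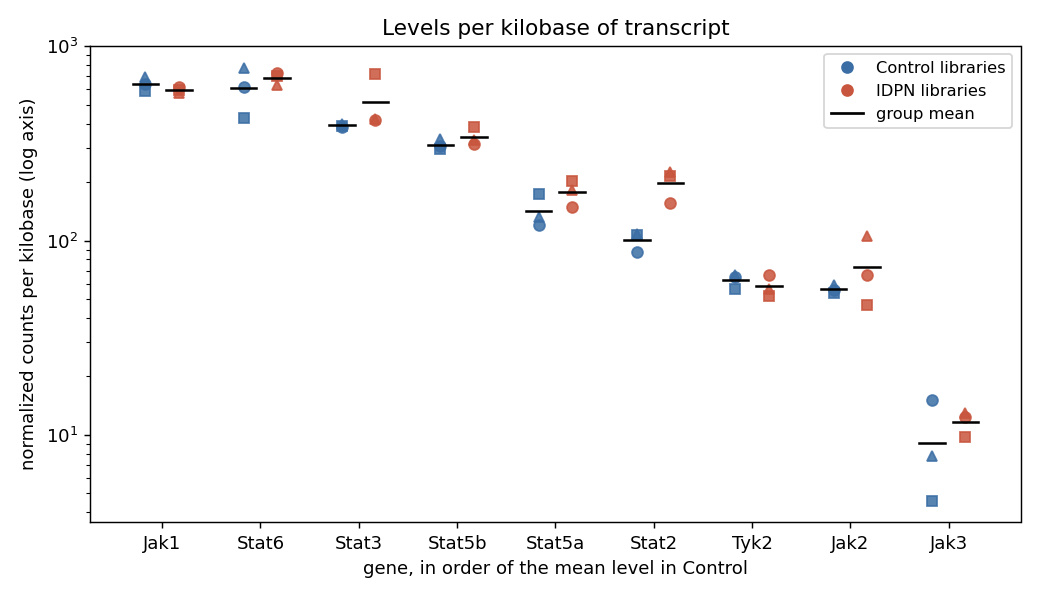
Normalized counts per kilobase of transcript (log axis) of the Janus kinase and STAT genes other than Stat4, with Jak3, in order of the Control mean; points are libraries (3 Control in blue, 3 IDPN in red, marker shapes giving the library number) and bars are group means. Stat2 moves from 100.9 in Control to 199 in IDPN, above Stat5a at 178, while Jak1 is at 638 in Control and 594 in IDPN.

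The kinase genes did not pass the thresholds. Jak1 (ENSMUSG00000028530.14, GRCm38 chromosome 4, 101152367 to 101265282, minus strand), whose product pairs with the interferon, gp130 and common gamma chain receptors, had 3122, 2873 and 3399 normalized counts in the Control libraries 1 to 3 and 3023, 2908 and 2807 in the IDPN libraries. The groups overlapped, since Control 2 lay below 2 of the IDPN libraries. Its log2-Fold_Change was -0.10 (standard error 0.15, DESeq2 Padj = 0.812), and the 95% interval of the fold change ran from 0.760 to 1.14, so the interval did not reach a 1.5-fold change in either direction.

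Tyk2 (ENSMUSG00000032175.11, chromosome 9, 21104068 to 21131243, minus strand) encodes the partner of JAK1 on the type I interferon receptor. Its normalized counts were 315, 272 and 321 in Control and 320.3, 251 and 272 in IDPN, and the groups overlapped. The log2-Fold_Change was -0.11 (standard error 0.22, DESeq2 Padj = 0.881), with a 95% interval of the fold change from 0.692 to 1.24. Exons of Tyk2 share 8.07% of their bases with the antisense gene 1700084C06Rik, and the library protocol does not mark strand, so reads from those bases cannot be assigned to either gene.

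Jak2 (ENSMUSG00000024789.12, chromosome 19, 29251828 to 29313080, plus strand), the kinase of the growth hormone, prolactin, erythropoietin and interferon gamma receptors, had 281, 270.1 and 296 normalized counts in Control. In IDPN it had 334, 234 and 533. The Control libraries lay close together, and the IDPN libraries fell on both sides of them, with IDPN 3 far above and IDPN 2 below all Control libraries. The log2-Fold_Change of 0.38 (standard error 0.28, DESeq2 Padj = 0.557) rested on IDPN 3, since it was 0.0062 without that library (DESeq2 Padj = 0.997) and 0.61 without IDPN 2 (DESeq2 Padj = 0.207). Jak3 (chromosome 8, 71676296 to 71690575) had 60.6, 18.5 and 31.1 normalized counts in Control and 49.6, 39.2 and 52.3 in IDPN, with a log2-Fold_Change of 0.36 (standard error 0.50, DESeq2 Padj = 0.805).

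**Figure D2:**
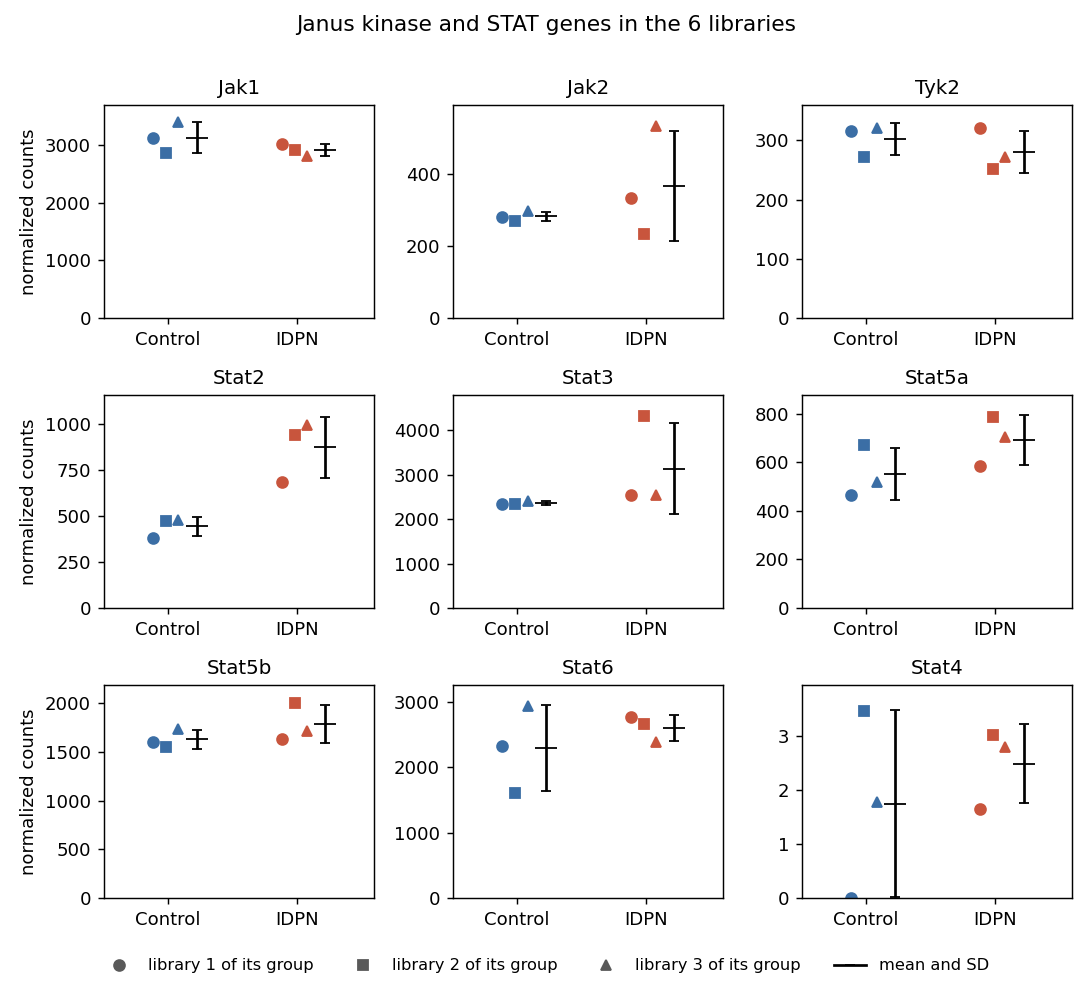
Normalized counts (linear axis from 0) of the 9 Janus kinase and STAT genes in each library, Control in blue and IDPN in red, with the group mean and SD in black (n = 3 per group). The IDPN libraries lie above all Control libraries for Stat2 (685 to 996 against 382 to 478) and Stat3, where IDPN 2 at 4333 is far from the other libraries.

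Stat2 (ENSMUSG00000040033.16, chromosome 10, 128270559 to 128292849, plus strand) encodes the subunit of ISGF3 that recruits the transcription machinery after interferon. Its normalized counts were 382, 471 and 478 in the Control libraries 1 to 3 and 685, 942 and 996 in the IDPN libraries. All IDPN libraries lay above all Control libraries, and IDPN 1 was the lowest of the IDPN libraries. The mean rose from 444 ± 53.4 to 874 ± 166 (SD, n = 3 each), a log2-Fold_Change of 0.98 (standard error 0.21, DESeq2 Padj = 0.00015), with a 95% interval of the fold change from 1.49 to 2.61.

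The upregulation of Stat2 held in each of the 6 fits on 5 libraries, with a log2-Fold_Change from 0.87 without IDPN 3 (DESeq2 Padj = 0.0116) to 1.13 without IDPN 1 (DESeq2 Padj = 1.5e-05), and it was 0.92 without IDPN 2 (DESeq2 Padj = 0.0044). It was also called by edgeR (log2-Fold_Change 0.98, adjusted p = 0.0187) and under total-count scaling (1.20, DESeq2 Padj = 0.00025). The call was lost only when the test itself was set against a fold change of 1.5 (DESeq2 Padj = 1.0), and the lower end of the interval lay just under 1.5-fold.

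The promoter of Stat2 is shown because Stat2 was the gene that passed the thresholds and because ISGF3, of which its product is a part, binds a known response element. The window below is the RefSeq sequence of GRCm38.p6, chr10:128270248-128270547, plus strand, from 250 bases before the start site to 50 after it. Capitals mark the only match to the searched letters.
Stat2: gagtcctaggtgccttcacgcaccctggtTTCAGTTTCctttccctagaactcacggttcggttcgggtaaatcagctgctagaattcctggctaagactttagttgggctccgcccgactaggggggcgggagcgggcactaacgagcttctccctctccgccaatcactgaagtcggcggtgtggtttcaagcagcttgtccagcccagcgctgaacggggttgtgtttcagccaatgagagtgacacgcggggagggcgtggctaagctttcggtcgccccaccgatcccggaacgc
The letters searched on both strands were GAAANNGAA for the interferon-stimulated response element (ISRE) and TTCNNNGAA for the gamma-activated sequence (GAS), which can overlap in the letters GAA. The match in the Stat2 window, TTCAGTTTC, was to the ISRE letters on the opposite strand, and it began at position -221 from the start site. All 9 genes had at least 1 window and 12 windows in all. The ISRE letters were found in 2 of the 12, against 8.56% of all 32851 windows in the table, and the GAS letters in 0 of the 12, against 8.3%. The other match was GAAAGTGAA at position -97 in the second window of Stat4, a gene with almost no reads here. Such a match describes the letters of the window and does not show binding.

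Irf9, which encodes the DNA-binding partner of STAT2 in ISGF3, was upregulated more than Stat2. It had 676, 728 and 818 normalized counts in Control and 1393, 2870 and 2105 in IDPN. The groups did not overlap, and IDPN 1 was again the lowest IDPN library. The log2-Fold_Change was 1.52 (standard error 0.24, DESeq2 Padj = 2.53e-08). Irf9 was the only one of 13 partner genes (nuclear partners, coactivators and adaptors) to pass the thresholds. The list had 1 upregulated, 0 downregulated and a median of 0.23. Irf9 is also on the list of ISGF3 targets below, so both lists count it.

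Stat3 (ENSMUSG00000004040.16, chromosome 11, 100885098 to 100939540, minus strand) encodes the main effector of gp130 cytokines such as interleukin 6 and leukemia inhibitory factor. Its normalized counts were 2332, 2345 and 2413 in Control and 2536, 4333 and 2550 in IDPN. All IDPN libraries were above all Control libraries, but IDPN 1 and IDPN 3 only narrowly, and IDPN 2 far above every other library. The log2-Fold_Change of 0.41 (standard error 0.21, DESeq2 Padj = 0.309) missed the threshold and had a 95% interval of the fold change from 0.994 to 1.775. Without IDPN 2 it was 0.11 (DESeq2 Padj = 0.864), so its size rested on the library that also held the high Fos and Junb.

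Stat5a and Stat5b are neighbouring, closely related genes that serve prolactin, growth hormone and common gamma chain cytokines. Stat5a (ENSMUSG00000004043.14, chromosome 11, 100859351 to 100885169, plus strand) had 467, 673 and 517 normalized counts in Control and 583, 788 and 705 in IDPN. Stat5b (ENSMUSG00000020919.11, chromosome 11, 100780731 to 100850724, minus strand) had 1600, 1547 and 1735 in Control and 1630, 2001 and 1714 in IDPN. The groups overlapped for both genes. The log2-Fold_Change was 0.32 for Stat5a (standard error 0.21, DESeq2 Padj = 0.465, 95% interval of the fold change 0.942 to 1.67) and 0.13 for Stat5b (standard error 0.16, DESeq2 Padj = 0.775, interval 0.879 to 1.36).

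The coding sequences of Stat5a and Stat5b were identical at 90.7% of 2343 aligned bases. Of the stretches as long as a read (76 bases) in the Stat5a transcript, 9.99% also occurred in Stat5b, so part of the reads could only be divided between the genes by estimate. No other pair among the genes had such a stretch in common. Stat5a made up 22.6%, 30.3% and 23.0% of the counts of both in Control and 26.3%, 28.3% and 29.1% in IDPN. The groups overlapped, and the mean shares, 25.3% ± 4.36 (SD, n = 3) for Control and 27.9% ± 1.43 (SD, n = 3) for IDPN, differed by 2.62 percentage points, with a two-sided exact permutation p of 0.40. With 3 libraries per group this test cannot give a p below 0.10, so it could not decide whether the share changed. Stat5b, Stat5a and Stat3 lie in a row on chromosome 11. The last exons of Stat5a and Stat3 run into each other on opposite strands over 72 bases, which without strand cannot be assigned to either gene.

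Stat6 (ENSMUSG00000002147.18, chromosome 10, 127642986 to 127660957, plus strand), the effector of interleukins 4 and 13, had 2333, 1612 and 2932 normalized counts in Control and 2765, 2662 and 2384 in IDPN. The Control libraries spread widely and enclosed all IDPN libraries. The log2-Fold_Change of 0.18 (standard error 0.21, DESeq2 Padj = 0.754, 95% interval of the fold change 0.852 to 1.51) fell to -0.02 without Control 2. Stat4 (ENSMUSG00000062939.11, chromosome 1, 51987148 to 52107189, plus strand), which acts downstream of interleukin 12 in T and natural killer cells, had 0, 3 and 2 estimated counts in Control and 2, 3 and 3 in IDPN. These are at or below 3 counts, the upper limit that an observed 0 allows, so no fold change is given. The limit covers counting error only. Of the exon bases of Stat4, 26.7% also belong to the overlapping gene Gm28177.

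**Figure D3:**
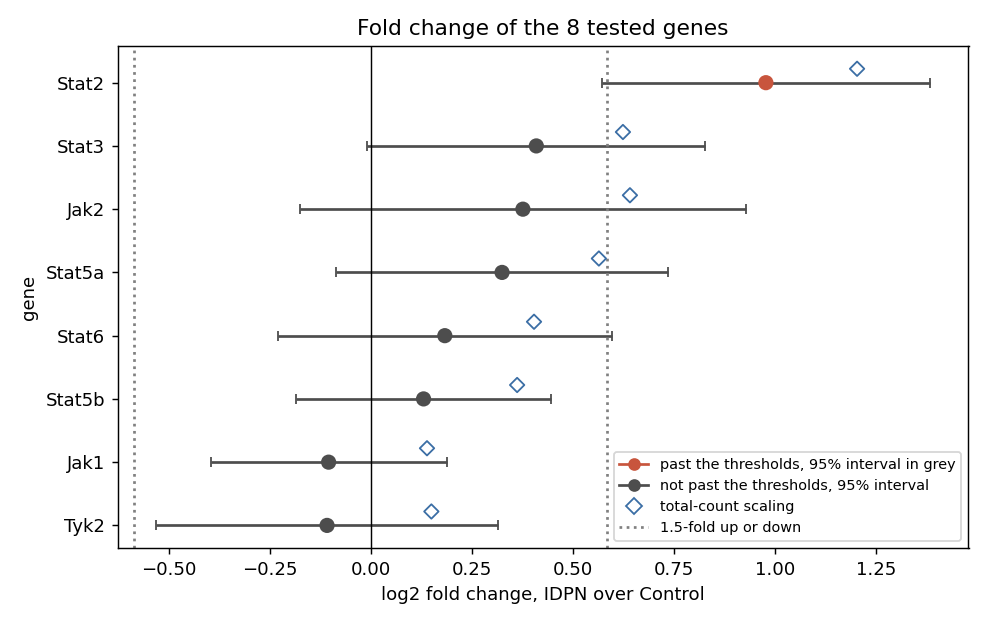
Log2 fold change of the 8 tested genes, IDPN over Control, with 95% intervals from the DESeq2 fit (circles, Stat2 in red as the gene past the thresholds) and the estimates under total-count scaling (open diamonds); dotted lines mark 1.5-fold. Stat2 is at 0.98 with an interval from 0.57 to 1.38, and Jak1 and Tyk2 lie below 0 (-0.10 and -0.11) in the first scaling and above it (0.14 and 0.15) in the second.

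The other genes of the pathway were described by 11 lists of receptors, ligands, partners, feedback regulators and targets, with 178 genes in all. Of these, 130 were tested, with a median log2-Fold_Change of 0.32. Among them 19 were upregulated and 3 downregulated, against 2.32% and 3.42% of all tested genes. The same shares stand beside the counts of each list below. The calls lay mostly among the targets of ISGF3, and all lists were chosen with earlier results of these data known. Without IDPN 2, 16 were upregulated and 3 downregulated.

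No receptor gene passed the thresholds. Of 6 interferon receptor genes, 0 were called, and the list median was -0.02. The highest were Ifnar2, a chain of the type I interferon receptor (3437, 2984 and 2266 normalized counts in Control, 2599, 2971 and 2539 in IDPN; log2-Fold_Change -0.10, standard error 0.19, DESeq2 Padj = 0.870), and Ifngr1. Ifngr1, the ligand-binding chain of the interferon gamma receptor, had 2520, 2483 and 2434 in Control and 2627, 2823 and 2537 in IDPN, which was higher in every IDPN library but by only 0.10 (standard error 0.14, DESeq2 Padj = 0.808).

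Of 8 receptor genes of the gp130 type, 0 were called, with a list median of 0.31. Il6st, which encodes gp130 itself, had 3345, 3043 and 3719 normalized counts in Control and 4265, 3981 and 3717 in IDPN (log2-Fold_Change 0.24, standard error 0.15, DESeq2 Padj = 0.454). Il11ra1, the interleukin 11 receptor, had 5105, 5327 and 4799 in Control and 4515, 5180 and 4518 in IDPN (-0.10, standard error 0.15, DESeq2 Padj = 0.822). Both overlapped between groups.

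Among 22 other receptor genes, 18 were tested and 0 called, with a median of 0.14. Ghr, the growth hormone receptor, was lower in every IDPN library, with 570.0, 601 and 460.0 normalized counts in Control and 406, 312 and 389 in IDPN. The log2-Fold_Change of -0.56 (standard error 0.21, DESeq2 Padj = 0.0877) missed the thresholds, and it passed only without Control 3 (-0.67, DESeq2 Padj = 0.0236). Il4ra, the receptor chain upstream of STAT6, had 908, 722 and 843 in Control and 596, 1071 and 583 in IDPN, with a log2-Fold_Change of -0.14 (standard error 0.24, DESeq2 Padj = 0.860) and overlapping groups.

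RNA of many ligands was not detected. Of 34 ligand genes, 17 were listed at 0 in all 6 libraries. These included the interferon genes Ifnb1, Ifng, Ifne and Ifnk and the interleukin genes Il6, Il4, Il13 and Il10. A listed 0 allows up to 3 counts per library, so lower levels were not detectable at this depth. Only 11 ligand genes were tested and 0 were called, with a median of 0.58. The upregulated count was 1 without Control 1 and 1 without IDPN 3. Ctf1, which encodes the gp130 ligand cardiotrophin 1, had 75.2, 605 and 864 normalized counts in Control and 1054, 1268 and 1254 in IDPN. It was above all Control libraries in every IDPN library, but Control 1 was far below the other Control libraries. The log2-Fold_Change was 1.21 (standard error 0.87, DESeq2 Padj = 0.533). Without Control 1 the estimate was smaller, 0.69, but Ctf1 passed the thresholds (DESeq2 Padj = 0.0482). Cntf, ciliary neurotrophic factor, had 439, 315 and 284 in Control and 293, 280.1 and 237 in IDPN (-0.35, standard error 0.24, DESeq2 Padj = 0.486).

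**Figure D4:**
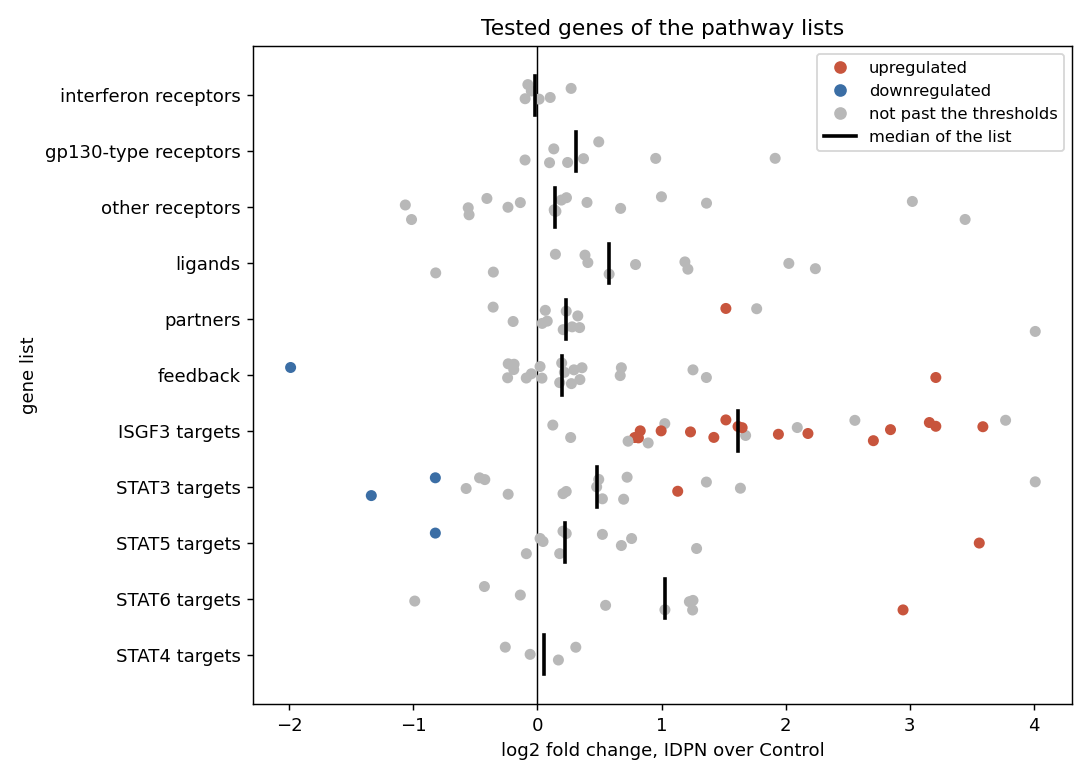
Log2 fold change (IDPN over Control) of every tested gene in the 11 pathway lists, with upregulated genes in red, downregulated genes in blue, the others in grey and the median of each list as a black bar; the vertical scatter within a list has no meaning. The 25 ISGF3 targets all lie above 0 with a median of 1.62 and 16 upregulated, and the interferon receptors lie around 0 with none called. The lists were chosen with earlier results of these data known.

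The targets of ISGF3, genes with antiviral functions that interferon induces, were mostly higher in IDPN. The list was chosen with earlier results of these data known, so its counts are a description and not a test. All 25 were tested, 16 were upregulated and 0 downregulated, and all 25 had a log2-Fold_Change above 0, with a median of 1.62. Of these, 19 were higher in every IDPN library, against 11.1% of all tested genes. edgeR called 11 upregulated and 0 downregulated, 14 were upregulated without IDPN 2, and 7 in the test against a fold change of 1.5. The ISRE letters occurred in the promoter windows of 9 of the 18 targets that had a window, against 9.76% of all 27025 genes, and not in the windows of Irf9.

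Usp18, which encodes the protease that removes ISG15 and holds back signalling at the interferon receptor, had the lowest Padj among these targets. It had 126, 99.3 and 108 normalized counts in Control and 497, 1163 and 1419 in IDPN, a log2-Fold_Change of 3.21 (standard error 0.31, DESeq2 Padj = 1.12e-21). The lowest IDPN library was several times the highest Control library. Oasl2, a relative of the 2'-5' oligoadenylate synthetases, had 525, 604 and 479.5 in Control and 1020, 2343 and 1566 in IDPN (log2-Fold_Change 1.62, standard error 0.26, DESeq2 Padj = 6.24e-08). Oasl1, of the same family, rose from 2.43, 12.7 and 12.5 to 52.1, 82.3 and 202 (3.59, standard error 0.60, DESeq2 Padj = 2.8e-07).

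Irf7, the transcription factor that amplifies type I interferon production, had 162, 304 and 177 normalized counts in Control and 431, 1291 and 748 in IDPN. The groups did not overlap, the log2-Fold_Change was 1.94 (standard error 0.34, DESeq2 Padj = 1.11e-06), and the call was lost only without Control 3 (DESeq2 Padj = 0.0516). Xaf1, a proapoptotic gene induced by interferon, rose from 88.5, 65.8 and 66.7 to 188, 295 and 209 (1.65, standard error 0.29, DESeq2 Padj = 2.37e-06). The estimate for Stat2 (0.98) was below those of all of these. Among the called targets only Adar (0.78), Parp9 (0.81) and Dtx3l (0.83), chosen after their values were seen, had a lower estimate, and differences between genes were not tested.

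The libraries differed in which IDPN animal was highest. Stat2 and Usp18 were highest in IDPN 3, and Irf9, Oasl2, Irf7 and Xaf1 in IDPN 2. Some targets, chosen here after their values were seen, were by far highest in IDPN 3. Ifit1 had 10040 normalized counts in IDPN 3 against 1100 and 2489 in the other IDPN libraries, and Rsad2 844 against 131 and 159. Jak2 was also highest in IDPN 3, whereas Tyk2 and Jak1 were not.

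**Figure D5:**
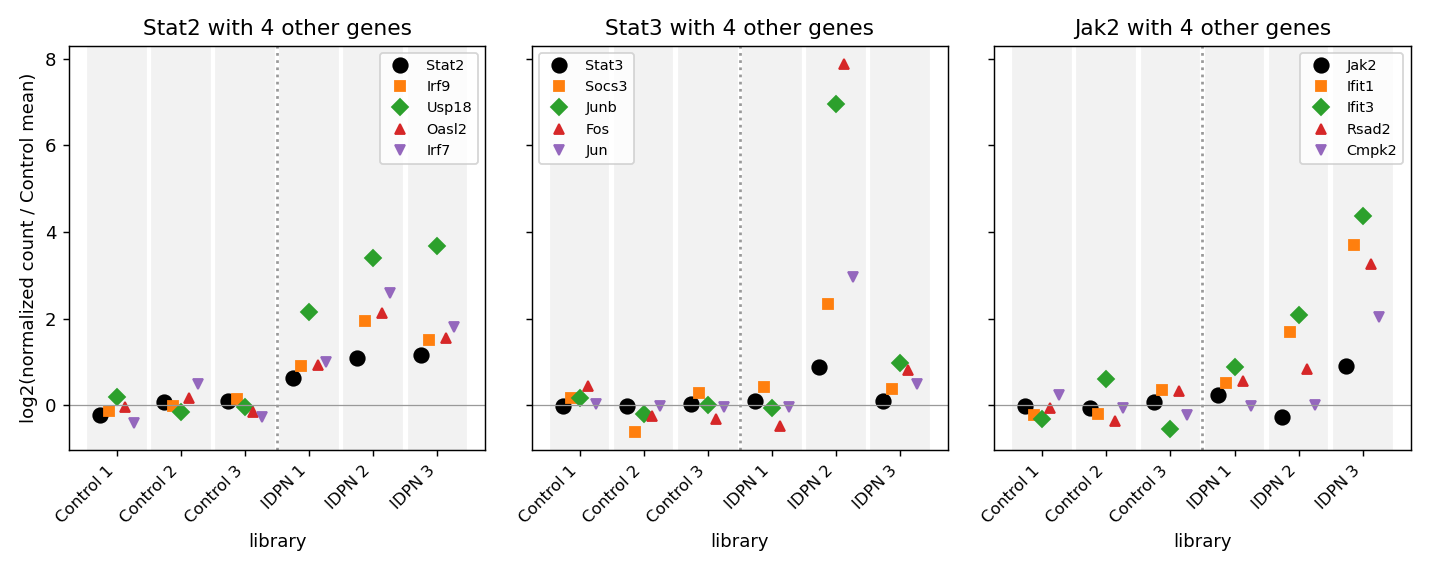
Log2 of the normalized count over the Control mean in each library (replicate numbers have no order) for Stat2, Stat3 and Jak2 (black circles), each with 4 pathway genes chosen after their values were seen. Stat2, Irf9, Usp18, Oasl2 and Irf7 lie above 0 in all IDPN libraries, Stat3 is high in IDPN 2 with Fos and Junb, and Jak2 is high in IDPN 3 with Ifit1, Ifit3, Rsad2 and Cmpk2.

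The targets of the other STATs gave few calls. Of 26 STAT3 targets, 17 were tested, with 1 upregulated, 2 downregulated and a median of 0.48. Fos, Junb and Myc, which were all far higher in IDPN 2 than in any other library, are on this list but were given no p-value by the Cook's distance filter and are not among the 17. The upregulated count was 3 with that filter off, 2 under total-count scaling, 0 by edgeR and in the test against a fold change of 1.5, and 0 to 4 with a library left out, being 0 without Control 1, Control 2 or IDPN 2, 4 without IDPN 1 and 3 without IDPN 3. Serpina3n, an acute phase protease inhibitor, fell from 1955, 1765 and 1504 normalized counts to 779, 638 and 649 (log2-Fold_Change -1.34, standard error 0.18, DESeq2 Padj = 2e-11), with no overlap. Bcl6, a transcriptional repressor that is also on the STAT5 list, fell from 954, 1215 and 1157 to 622, 674 and 587 (-0.82, standard error 0.18, DESeq2 Padj = 0.00021), and total-count scaling took its call away (-0.58, DESeq2 Padj = 0.145). Mcl1, an antiapoptotic gene, had 376, 481 and 548 in Control and 524, 1657 and 899 in IDPN (1.13, standard error 0.32, DESeq2 Padj = 0.01). Its groups overlapped, it was not called by edgeR (adjusted p = 0.121), and of the 6 fits on 5 libraries it kept its call only in the one without IDPN 1. Without IDPN 2 its log2-Fold_Change was 0.60 (DESeq2 Padj = 0.251).

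Of 16 STAT5 targets, 12 were tested, with 1 upregulated, 1 downregulated (Bcl6) and a median of 0.22. The upregulated gene was Csn3, kappa casein, a milk protein gene, with 344, 319.7 and 455 normalized counts in Control and 4465, 5436 and 3306 in IDPN (log2-Fold_Change 3.56, standard error 0.22, DESeq2 Padj = 4.72e-57). The other milk protein genes of the list, Csn1s1, Csn2 and Wap, were listed at 0 in all libraries, and Cish, the feedback gene most typical of STAT5 (0.68, standard error 0.40, DESeq2 Padj = 0.401, chosen after its values were seen), had overlapping groups. With IDPN 2 left out, the estimate for Cish dropped to 0.069 (DESeq2 Padj = 0.977).

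Of 16 STAT6 targets, 9 were tested, with 1 upregulated and 0 downregulated and a median of 1.03. Chia1, acidic mammalian chitinase, had 177, 192 and 150.4 normalized counts in Control and 996, 957 and 2041 in IDPN, a log2-Fold_Change of 2.94 (standard error 0.28, DESeq2 Padj = 5.15e-23). Of 7 STAT4 targets, 4 were tested and 0 called. The highest were Furin (0.31, standard error 0.20, DESeq2 Padj = 0.481), a proprotein convertase, and Gadd45g (-0.26, standard error 0.40, DESeq2 Padj = 0.832), a stress-inducible gene.

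Feedback regulators were tested for all 21 genes, with 1 upregulated (Usp18), 1 downregulated and a median of 0.20. The upregulated count was 3 under total-count scaling and without IDPN 1, and 2 without Control 3 or IDPN 3. The downregulated gene was Ptprt, a receptor tyrosine phosphatase that acts on STAT3. It fell from 82.5, 94.7 and 137 normalized counts to 44.7, 21.1 and 13.1 (log2-Fold_Change -1.99, standard error 0.46, DESeq2 Padj = 0.00088) with no overlap, and edgeR gave it an adjusted p of 0.0504. Socs3, the inhibitor induced by STAT3 and chosen after its values were seen, had 156, 91.2 and 169 in Control and 187, 704 and 180.1 in IDPN. Like Stat3 it was narrowly higher in IDPN 1 and IDPN 3 and far higher in IDPN 2, with a log2-Fold_Change of 1.36 (standard error 0.70, DESeq2 Padj = 0.30) that was 0.40 without IDPN 2 (DESeq2 Padj = 0.688). Socs3 was called under total-count scaling (1.5, DESeq2 Padj = 0.0172) and in 2 of the 6 fits on 5 libraries, with the lowest DESeq2 Padj of 0.0119 without IDPN 1.

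The genes whose pattern over the 6 libraries was most like that of Stat2 were sought among 11196 genes with a symbol and a mean of at least 100 normalized counts, by the root mean square difference of log2(normalized count + 1) after centring each gene. The closest were AU020206, a noncoding transcript (0.0619), Tgfb1i1, a focal adhesion adaptor (0.0737), Ptx3, a secreted pentraxin (0.0945), Ofd1, a centriole protein (0.125), and Slc30a2, a zinc transporter (0.136). AU020206 had 337, 374 and 416 normalized counts in Control and 574, 827 and 797 in IDPN, close to Stat2 in size as well as in pattern. Their log2-Fold_Change of 0.83 to 1.00 and their calls, all upregulated, follow from this choice and are given as a description. Tgfb1i1 was not called by edgeR (adjusted p = 0.0845), nor without Control 1, Control 2, IDPN 2 or IDPN 3 (DESeq2 Padj = 0.0632 to 0.161), and Ofd1 was not called without Control 1 or IDPN 2 (DESeq2 Padj = 0.0613 and 0.0608). Of the pathway genes, the nearest by this measure were Adar at rank 33, Parp9 at 42, Socs5 at 125, Ccnd1 at 210, Dtx3l at 284 and Irf9 at 350. The nearest gene of the group itself was Stat5a at 617.

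Summed macrophage markers were higher in IDPN, at 9101, 13490 and 8909 in IDPN 1 to 3. Their sum was 6190 to 7958 normalized counts in Control and 8909 to 13490 in IDPN, with IDPN 2 the highest library. The log2-Fold_Change was above 0 in 13 of 15 markers, against 51.65% of all tested genes. Of these markers 2 were upregulated (Lyz2 and Fcgr1), against 2.32% of all tested genes. By edgeR 0 of them were called (adjusted p = 0.0708 for Lyz2 and 0.0924 for Fcgr1), and of the 6 fits on 5 libraries Lyz2 was called in 5 and Fcgr1 in 1. Lymphocyte markers summed to 150.4 to 283 in Control and 204 to 230 in IDPN, with Cd79b, Gzma, Ncr1 and Nkg7 at 0 in all libraries. Neutrophil markers summed to 27.6 to 65.8 and 28.9 to 69.3, with Elane and Ly6g at 0. The part that macrophage number, the lower HC and supporting cell transcripts or the immediate early genes of IDPN 2 have in the values of Stat2, Stat3 and the ISGF3 targets was not tested.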

How the data were processed

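Bulk RNA-seq libraries (SMART-seq2, oligo-dT primed, without molecular identifiers, from 6 to 11 ng of total RNA) were made from 6 animals. The authors mapped the reads to GRCm38 with STAR 2.5.3a and quantified genes with RSEM, using GENCODE gene models. The table the authors deposited holds the estimated counts (expected counts) of each gene as whole numbers without normalization, and RSEM divides reads shared by similar genes by estimate. Libraries of a group differed well beyond counting noise (chi-square per degree of freedom 40.6 to 158 over pairs within groups), and intervals on counts cover counting error only.

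All genes were tested with DESeq2 1.42.0 in R 4.3.3 (Wald test, median-of-ratios size factors, no covariate), with Benjamini-Hochberg adjusted p (Padj) under 0.05 and a fold change above 1.5 as in the study's methods. The Cook's distance filter left 40 genes, Fos and Junb among them, without a p-value. Alternatives were edgeR 4.0.16 (quasi-likelihood, TMM, filterByExpr), total-count size factors, a minimum of 10 counts in 3 libraries, independent filtering off, the Cook's distance filter off, a test against a fold change of 1.5, and leaving out each library. For a single value per library, a two-sided exact permutation test of the group means was used, whose smallest possible p was 0.10. Fits and calls were also run on simulated data. The changes set there were larger than that of Stat2, so recovery of a change of its size was not tested.

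The genes described, the pathway lists, the cell marker lists and the rules were chosen with earlier results of these data known. From each pathway list the called genes were named (at most 6, by Padj) or, with no call, the 2 highest, together with the 5 genes most like Stat2. Other genes are marked as chosen after their values were seen. Not every gene of these families is reported here. Coordinates, lengths (the longest protein-coding transcript of the basic set, for counts per kilobase) and coding sequences came from GENCODE M21 on the same build, a later release than the authors' annotation, and promoters from RefSeq on GRCm38.p6.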

Additional observations from a re-analysis of the deposited data

How the results depend on the processing

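Across 12 alternatives, the 8 tested Janus kinase and STAT genes gave 96 values, of which 92 kept their direction and their side of the thresholds. Setting the test against a fold change of 1.5 left 0 of these genes upregulated, 9 pathway genes upregulated and 1 downregulated, and 34 upregulated and 111 downregulated genes over the whole table. edgeR called 166 genes upregulated and 357 downregulated, where DESeq2 called 410 and 604, and total-count scaling left 214 downregulated. Total-count scaling turned the log2-Fold_Change of Jak1 (0.14), Tyk2 (0.15), Ifnar2 (0.17), Il11ra1 (0.15) and Il4ra (0.076), none of them called, and put 4 of the 9 genes (Stat2, Stat3, Stat5a and Stat5b) above Control in every IDPN library.

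Leaving out a library gave 234 to 611 upregulated and 436 to 720 downregulated genes, 16 to 23 upregulated and 3 to 5 downregulated pathway genes, and 2 to 4 of the 9 genes higher and 0 to 1 lower in every IDPN library. It turned Stat6 (-0.021 to 0.40), Ifnar2 (-0.25 to 0.038), Il4ra (-0.48 to 0.014) and Gadd45g (-1.0 to 0.016), none of them called. The Stat5a share differed by 1.27 to 5.13 percentage points without a library and by 2.99 per kilobase. The cause of these changes was not tested. No paired analysis was possible because the labels give the samples no replicate numbers. With 3 libraries per group, changes under 1.5-fold in Jak2, Stat3, Stat5a and Stat6 had 95% intervals that reach past that size.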

Other observations

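Some genes of the pathway were higher in every IDPN library without passing the thresholds, and were chosen here after their values were seen. Lepr, the leptin receptor, had few reads, with 7.28, 9.23 and 5.34 normalized counts in Control and 28.1, 32.1 and 21.5 in IDPN, and a log2-Fold_Change of 1.92 (standard error 0.69, DESeq2 Padj = 0.0718). It was called under total-count scaling (2.18, DESeq2 Padj = 0.049) and in none of the 6 fits on 5 libraries. Cebpb, a transcription factor of the acute phase response that works with STAT3, had 0, 6.92 and 25.8 in Control and 43.0, 344 and 144 in IDPN, highest in IDPN 2, with a DESeq2 Padj of 0.0994 that was 0.467 without IDPN 2. Socs5, a suppressor of cytokine signalling, had 679, 784 and 852 in Control and 896, 1649 and 1134 in IDPN, again highest in IDPN 2, with a log2-Fold_Change of 0.67 (standard error 0.23, DESeq2 Padj = 0.0528) that was 0.39 without IDPN 2 (DESeq2 Padj = 0.366). It was called under total-count scaling (0.87, DESeq2 Padj = 0.0199) and in 2 of the 6 fits on 5 libraries, with the lowest DESeq2 Padj of 0.0084 without IDPN 1.

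Summed over the genes, the 6 STAT genes reached 7281 ± 727 (SD, n = 3) normalized counts for Control and 9093 ± 1419 (SD, n = 3) for IDPN. The STAT sums were 8200, 10730 and 8352 in IDPN 1 to 3, against 6652 to 8077 in Control. IDPN 2 was thus far above the other libraries, and IDPN 1 and IDPN 3 were narrowly above Control. The 3 kinase genes reached 3717 ± 300.3 in Control and 3560 ± 149 in IDPN.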
